A study of Salmo salar with 12 samples.

Results

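The mature miRNAs of the miR-23, miR-24 and miR-27 families were followed in adherent intestinal cells (AIC), taken from the distal intestine, and in adherent head kidney cells (AKC) of Atlantic salmon. Small RNA had been sequenced in 6 libraries of each, named here by group and replicate 1 to 6. The fish were post-smolts kept in sea water, starved before sampling and given no other treatment. Their isolated cells were left on dishes for 2 days at 12°C, and the whole pool that stuck was sequenced without sorting, so each library holds a mixture of cell types. The study took macrophage-like cells to be present in both pools, and AKC served as its reference. The labels name no separate cultures, and the methods speak of 6 fish and biological replicates, so the p-values below measure the spread between these libraries. By the methods both organs came from these fish, but the labels do not say which libraries share a fish. The main tests treat the 12 libraries as independent. Members were chosen by name and by abundance. A row of the count table had to carry the name miR-23, miR-24 or miR-27, with or without a letter, followed by an arm and no locus number, and its counts had to reach 500 when summed over the 12 libraries. Of the 361 rows in the table, 12 fitted by name and 6 of these were members, namely ssa-miR-23b-3p, ssa-miR-23a-3p, ssa-miR-23b-5p, ssa-miR-24b-3p, ssa-miR-24a-3p and ssa-miR-27a-5p.

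In vertebrates miR-23, miR-27 and miR-24 lie next to each other in clusters, and the members of a cluster arise from one primary transcript. Salmonids carry further copies of many such clusters after an additional genome duplication. Each hairpin can release a mature miRNA from its 5′ arm (5p) and one from its 3′ arm (3p), and for these families the 3p product is usually the abundant one, while the 5p product is mostly degraded. In mammals the cluster is best known from endothelial cells and blood vessel growth, and it also acts in blood and immune cells. Which of the members here share a transcript in salmon was not determined. Their levels were also compared with each other inside each library, which needs no scaling between libraries. These ratios need not compare products of one transcript.

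The sum of counts was 160719 for ssa-miR-23b-3p, 28552 for ssa-miR-23a-3p and 7913 for ssa-miR-24b-3p. The other members lay closer to the limit, with 1034 for ssa-miR-27a-5p, 867 for ssa-miR-23b-5p and 855 for ssa-miR-24a-3p. Just outside it, ssa-miR-23a-5p summed to 366 and ssa-miR-27a-2-5p, which also carries a locus number, to 120. Of the 6 rows that fitted by name and missed the sum, 4 had no count in any library. The remaining row, ssa-miR-27d-5p, had 99 counts. All 6 miR-27 rows of the table named the 5p arm, and the 3p arm of miR-27 was not analysed here. These sums chose the members and are no finding.

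Total counts ran from 2253241 to 11804738 in AIC libraries and from 5791813 to 19586478 in AKC libraries. Levels are given as CPM, counts scaled to a common library size that TMM adjusts so that the bulk of the miRNAs is equal between libraries. At these sizes 3 counts, taken as the smallest countable signal, correspond to 0.417 to 1.59 TMM-normalized CPM in AIC and to 0.105 to 0.492 in AKC. Such floors and the Wilson intervals of shares cover counting error only, because PCR copies of a molecule are not told apart. The intervals of fold changes and of differences in ratio cover the spread between libraries.

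ssa-miR-23b-3p was the most abundant member and was higher in AIC than in AKC on the TMM scale. It did not pass the threshold with total counts or mapped reads as library size, nor without AIC replicate 6. ssa-miR-23a-3p, its paralogue, also had a higher mean in AIC but was not past the threshold, and the proportion between the pair did not differ detectably between the groups. ssa-miR-24b-3p was found in every AKC library and, above 1 count, in 4 of the AIC libraries, and the remaining 3 members had 3 counts or more in 3 to 5 of the 12 libraries. By mean level over the 12 libraries the order was ssa-miR-23b-3p, ssa-miR-23a-3p, ssa-miR-24b-3p, ssa-miR-24a-3p, ssa-miR-23b-5p and ssa-miR-27a-5p. ssa-miR-23b-3p exceeded ssa-miR-23a-3p in 12 of 12 libraries, and ssa-miR-23a-3p exceeded ssa-miR-24b-3p in 12 of 12 as well. The last 3 places are not told apart. ssa-miR-24a-3p exceeded ssa-miR-23b-5p in 3 of 12 libraries and ssa-miR-23b-5p exceeded ssa-miR-27a-5p in 4 of 12. For each of these pairs, 7 libraries had fewer than 3 counts of both, and ties at 0 are not counted as exceeding.

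**Figure D1:**
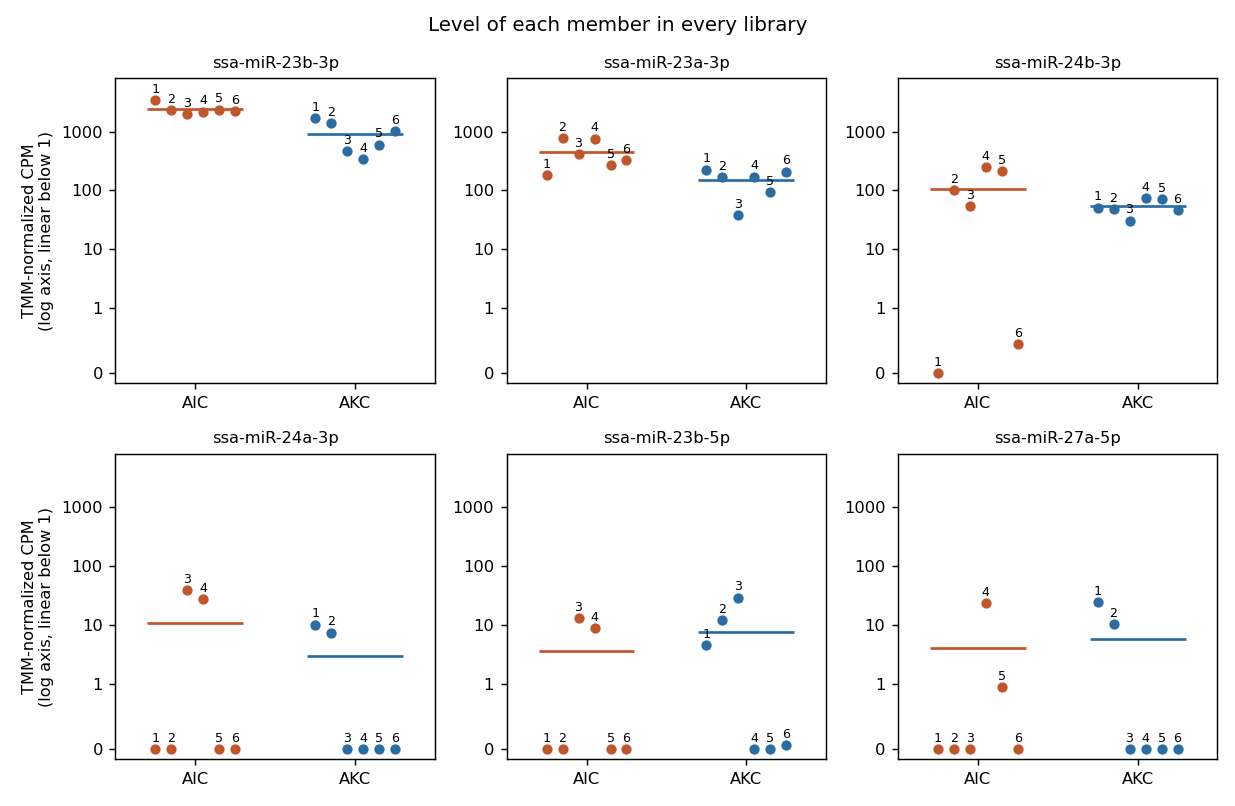
TMM-normalized CPM of the 6 members in each library, on an axis that is logarithmic above 1 and linear below it. Points are libraries with their replicate number, AIC on the left and AKC on the right, and the horizontal line is the mean of the 6 libraries. All AIC libraries lie above all AKC libraries for ssa-miR-23b-3p, whereas ssa-miR-24a-3p and ssa-miR-27a-5p are at or near 0 in most libraries of both groups and ssa-miR-23b-5p in 4 AIC and 3 AKC libraries.

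Of the 6 members, 3 passed the filter on low counts and were tested with edgeR's quasi-likelihood test over all 76 miRNAs that passed. A miRNA was called when its p, adjusted by Benjamini-Hochberg over the 76, lay under 0.05 and its log2 fold change reached 1 in either direction. One member, ssa-miR-23b-3p, was called, and it was higher in AIC. Over all tested miRNAs 26.3% were called and 17.1% were called higher in AIC, so 1 called among 3 tested is no more than a count. No member was called lower. The 3 members tested had log2 fold changes between 0.96 and 1.58, beside a median of 0.09 over all 76. Of the 76, 39 were positive and 42 reached 1 in either direction, so values of about this size were common.

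ssa-miR-23b-3p reached from 1998 to 3429 TMM-normalized CPM in AIC libraries (median 2289), against 335 to 1707 in AKC libraries (median 809). Every AIC library therefore lay above every AKC library, as did 15.8% of all tested miRNAs. The spread was narrow in AIC, where the highest library had 1.72 times the level of the lowest, and wide in AKC, where it had 5.09 times. The means were 2423 ± 510 CPM in AIC and 923 ± 550 in AKC (SD, n = 6 each). The log2 fold change was 1.39 (standard error 0.41, 95% interval 0.52 to 2.26, edgeR's quasi-likelihood test, adjusted p = 0.0164), and without AIC replicate 6 it was 1.17 and no longer called (adjusted p = 0.0734). By mean level this miRNA ranked 19 among all rows in AIC and 24 in AKC.

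ssa-miR-23a-3p had between 184 and 766 TMM-normalized CPM in AIC libraries (median 371), against 38.2 to 225 in AKC libraries (median 170). The groups overlapped through AIC replicate 1, which lay below AKC replicates 1 and 6. The log2 fold change of 1.58 was larger than that of ssa-miR-23b-3p but less certain, with a standard error of 0.60 and an interval from 0.29 to 2.87, and it did not pass the threshold (adjusted p = 0.0633, edgeR). DESeq2, the tool of the study, called both miR-23 members on the same 76 miRNAs, with 1.42 for ssa-miR-23a-3p and 1.37 for ssa-miR-23b-3p, and called 22.4% of the 76 higher in AIC. A further call of ssa-miR-23a-3p came without AIC replicate 1, at 1.73. The study itself listed both miR-23 members among its miRNAs higher in AIC.

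The calls turned on how the libraries were scaled. As a percent of the library's total count, ssa-miR-23b-3p took 0.179 ± 0.0305 in AIC and 0.128 ± 0.0788 in AKC (SD, n = 6 each). The groups then overlapped, and AKC replicate 1 had the highest share of all, 0.249%. With total counts alone the log2 fold changes were 0.48 for ssa-miR-23b-3p, 0.72 for ssa-miR-23a-3p and 0.02 for ssa-miR-24b-3p, and none was called. With the study's mapped reads as library size they were 0.04, 0.42 and -0.32. These scalings moved the median of all 76 miRNAs from 0.09 to -0.65 with total counts and to -1.18 with mapped reads. Measured from that median, ssa-miR-23b-3p stood at 1.30 with TMM, 1.13 with total counts and 1.22 with mapped reads. ssa-miR-23a-3p stood at 1.49, 1.37 and 1.60 above the median in the same order. A change of library size moves the log2 fold changes of all miRNAs by nearly the same amount. The distance from the median therefore stays similar by construction and is no test of either miR-23 member.

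**Figure D2:**
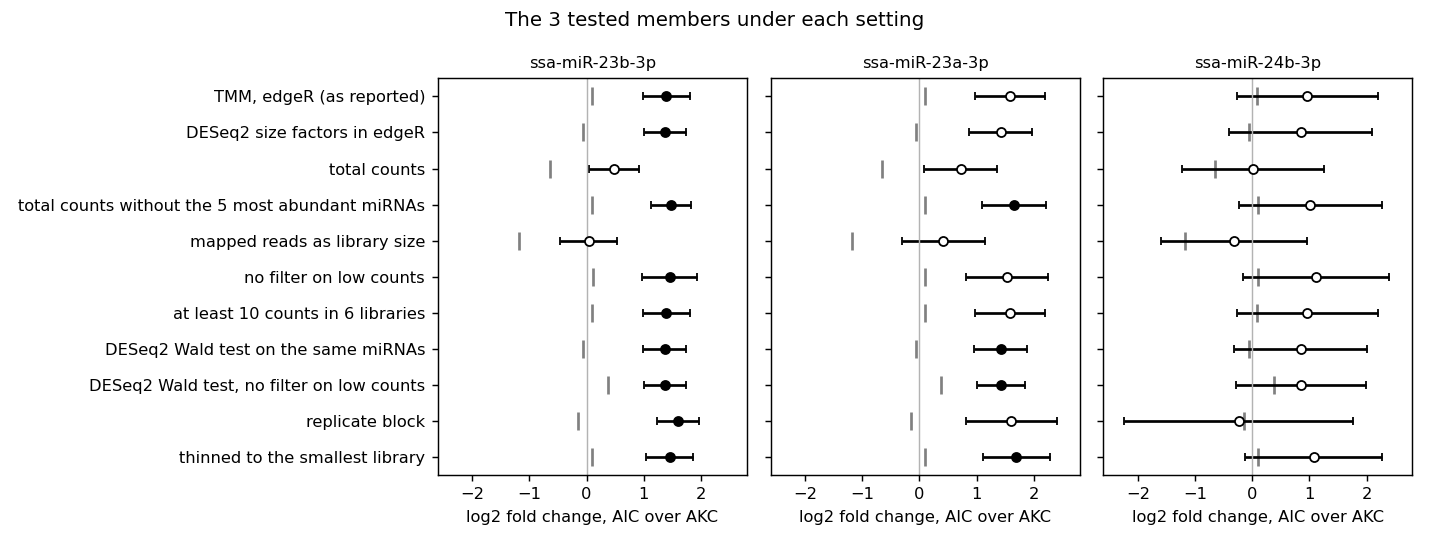
Log2 fold change of AIC over AKC for the 3 tested members under each setting, with bars for the standard error. Filled points were called, open points were not, and grey ticks mark the median of all miRNAs tested in that setting. ssa-miR-23b-3p was open with total counts and with mapped reads, where the grey ticks also lie farthest to the left, at -0.65 and -1.18.

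On the TMM scale a list of enteroendocrine miRNAs reached far higher levels in the AIC libraries than a list of epithelial miRNAs. These levels are not shares of the library total. Whether they bear on the scaling was not tested. Rows of miR-375 and miR-7, the enteroendocrine list, summed to 238242 to 466266 TMM-normalized CPM in AIC and to 58.2 to 190 in AKC. Of its 5 rows, 3 had a count and 1 of 2 tested was called, higher in AIC. The epithelial list (miR-200, miR-429, miR-192 and miR-194, 15 rows of which 12 had a count) summed to 8086 to 12618 CPM in AIC and to 0.328 to 72.6 in AKC. All 4 of its tested rows were called higher in AIC. The endothelial miR-126, in 2 rows of which 1 had a count, reached at most 190 CPM in AIC and 68.9 in AKC, with a median of 0 in both groups. The stromal list (miR-143, miR-145, miR-199 and miR-214, 6 rows of which 3 had a count) reached at most 9.45 CPM in AIC and lay between 4.85 and 55.1 in AKC, with ssa-miR-145-5p and ssa-miR-214-5p at 0. The muscle list (miR-1, miR-133 and miR-206, 10 rows of which 3 had a count) reached at most 63.9 in AIC and 9.90 in AKC, with miR-1 at 0. Among blood cell miRNAs, both rows of the erythroid miR-144 were at 0 in every library. The leukocyte miR-142, of which the table has the 5p arm in 2 rows, reached at most 38.1 CPM in AIC and 0 in AKC. The lymphoid miR-150 lay at 2409 to 29752 CPM in AIC and at 8088 to 22194 CPM in AKC and was not called. miR-141, miR-215, miR-451, miR-486 and miR-223 were not analysed here. The part of other cell types in the level of the miR-23 members was not tested. Fewer cells of a type and less miRNA per cell cannot be told apart in such pools.

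ssa-miR-23a-3p and ssa-miR-23b-3p differ little in sequence in vertebrates and share the seed that pairs with targets, so they are read as regulators of the same messages. Their proportion was measured inside each library as the percent of ssa-miR-23a-3p in the counts of both. It ran from 5.09% in AIC replicate 1 to 25.8% in AIC replicate 4 (median 15.0% in AIC), against 7.51% in AKC replicate 3 to 33.8% in AKC replicate 4 (median 12.7% in AKC). ssa-miR-23b-3p thus outnumbered its paralogue 2.87 to 18.6 times in AIC and 1.96 to 12.3 times in AKC.

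The spread between libraries of a group was far wider than the Wilson intervals, which cover the counting of reads and not of molecules before PCR. In AIC replicate 1 the 95% Wilson interval of the share was 4.60% to 5.64%, and in AIC replicate 4 it was 25.3% to 26.4%. In AKC replicate 4, which had the fewest counts of the pair (3090), it was 32.1% to 35.5%. The log2 ratio of ssa-miR-23a-3p to ssa-miR-23b-3p averaged -2.59 ± 1.02 in AIC and -2.59 ± 0.91 in AKC (SD, n = 6 each). The difference of -0.0031 had an interval from -1.29 to 1.22 (exact permutation test, two-sided, p = 0.994, adjusted p = 0.994 over 6 ratios), which still leaves room for a change of about the size of the fold changes themselves. Reads that fit both paralogues may have been counted on either, which was not tested, and no member row held a fractional count.

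**Figure D3:**
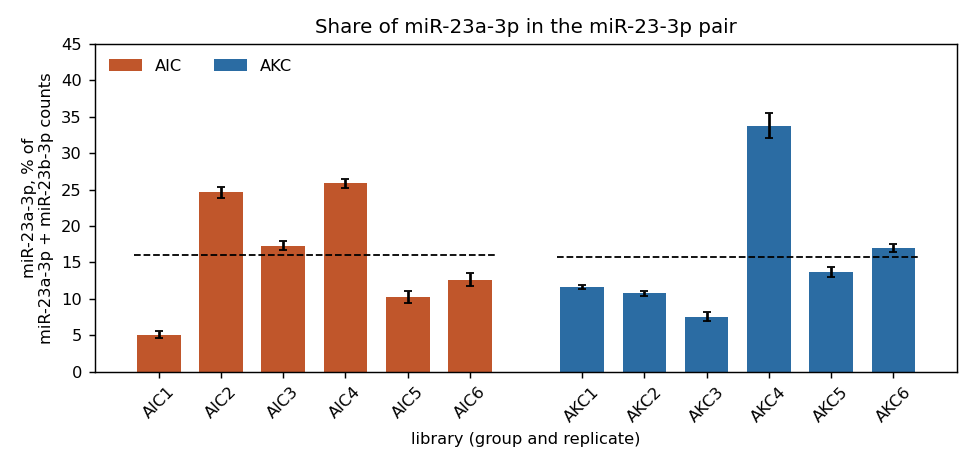
Percent of ssa-miR-23a-3p in the summed counts of ssa-miR-23a-3p and ssa-miR-23b-3p, one bar per library, with 95% Wilson intervals and a dashed line at the mean of each group. The dashed lines of the groups nearly coincide, while the libraries range from 5.09% to 25.8% in AIC and from 7.51% to 33.8% in AKC.

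ssa-miR-24b-3p belongs to the family that in mammals restrains cell cycle and cell death genes. It had between 0 and 252 TMM-normalized CPM in AIC libraries (median 78.6), against 30.5 to 74.7 in AKC libraries (median 49.4). AIC replicate 1 had 0 counts, which allows up to 1.59 CPM by the counting of reads alone, and AIC replicate 6 had 1 count. The other AIC libraries had 54.9 CPM or more, and 3 of them lay above all AKC libraries, so the AIC libraries fell on both sides of the AKC range. The log2 fold change of 0.96 had a standard error of 1.23 and an interval from -1.67 to 3.59 (adjusted p = 0.632, edgeR), and a difference of either direction was not detectable. It was 0.44 without AIC replicate 5 and 0.51 without AIC replicate 4, the AIC libraries with the highest levels. Without AIC replicate 1, which had 0 counts, the log2 fold change was 1.39.

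ssa-miR-24a-3p was detected in AIC replicates 3 and 4, with 244 and 195 counts, and in AKC replicates 1 and 2, with 289 and 127 counts. All other libraries had 0. Where it was present, it made up 41.3% and 9.71% of the counts of both miR-24-3p members in those AIC libraries (Wilson intervals 37.4% to 45.3% and 8.49% to 11.1%), against 16.5% and 13.5% in those AKC libraries. The intervals of these AIC libraries did not overlap, but they cover the counting of reads only. Since PCR copies are not told apart, the intervals cannot show that the libraries differ beyond the counting of molecules. Its log2 ratio to ssa-miR-24b-3p differed by 3.53 between AIC and AKC, within the spread of the libraries, with an interval from -2.40 to 9.33 (exact permutation test, two-sided, p = 0.123, adjusted p = 0.568 over 6 ratios). AIC replicate 1, where both counts were 0, enters this mean at a log2 ratio of 0, and AIC replicate 6, with 0 and 1 count, at -1.58. With only libraries of at least 10 counts in the pair the difference was 1.85.

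ssa-miR-23b-5p, the less abundant arm of the miR-23b hairpin, had 82 and 64 counts in AIC replicates 3 and 4 and 130, 205 and 385 counts in AKC replicates 1, 2 and 3. AKC replicate 6 had 1 count and the rest 0. In the libraries that held it, the 5p arm made up 0.645% and 0.407% of both arms in AIC, and 0.266%, 0.845% and 5.83% in AKC. The share in AKC replicate 3 (Wilson interval 5.29% to 6.42%) lay well above the others. In AIC replicate 1, 0 of 6466 counts allows a share of up to 0.0464% if each read is an independent draw. PCR copies of a molecule are not told apart, so this 0 cannot place the library below those that held the arm. The log2 ratio of the arms differed by -1.79 between AIC and AKC, with an interval from -6.42 to 2.87 (exact permutation test, two-sided, p = 0.379, adjusted p = 0.568 over 6 ratios). When each library was left out, the difference ran from -2.66 without AIC replicate 3 to -0.63 without AKC replicate 3.

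ssa-miR-27a-5p is the passenger arm of a miRNA that in mammals represses regulators of fat cell and blood cell differentiation. It had 168 counts in AIC replicate 4 and 2 in AIC replicate 5, against 689 and 175 in AKC replicates 1 and 2, with 0 elsewhere. This amounts to at most 23.3 TMM-normalized CPM in AIC and at most 24.1 in AKC. The filter on low counts left out ssa-miR-24a-3p, ssa-miR-23b-5p and ssa-miR-27a-5p, so no fold change is given for them.

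Ratios between the most abundant members of the families showed the same wide spread. ssa-miR-23b-3p to ssa-miR-24b-3p had a log2 ratio of 6.94 ± 4.55 in AIC and 3.94 ± 1.12 in AKC (SD, n = 6 each). The difference of 3.01, from -0.79 to 7.77, was no larger than the libraries' own spread (two-sided exact permutation test, p = 0.195, adjusted p = 0.568 over 6 ratios), and AIC replicates 1 and 6, the libraries with at most 1 count of ssa-miR-24b-3p, gave the highest ratios. Without AIC replicate 1 the difference was 1.66, and without AIC replicate 4 it was 3.77. The ratios to ssa-miR-27a-5p rested mostly on its zeros. For ssa-miR-23b-3p the difference was 0.90, from -3.73 to 5.32, and for ssa-miR-24b-3p it was -2.11, from -8.25 to 3.56 (exact permutation tests, two-sided, p = 0.708 and 0.355, adjusted p = 0.849 and 0.568). When 1 library was left out, that of ssa-miR-23b-3p ran from -0.13 without AKC replicate 1 to 2.04 without AIC replicate 4. That of ssa-miR-24b-3p was -1.05 without AIC replicate 1, -1.37 without AIC replicate 6, -1.39 without AKC replicate 5 and -3.37 without AKC replicate 1. None of the 6 ratios differed between AIC and AKC past the threshold, though the exact permutation of 6 libraries against 6 could have given p = 0.00216.

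**Figure D4:**
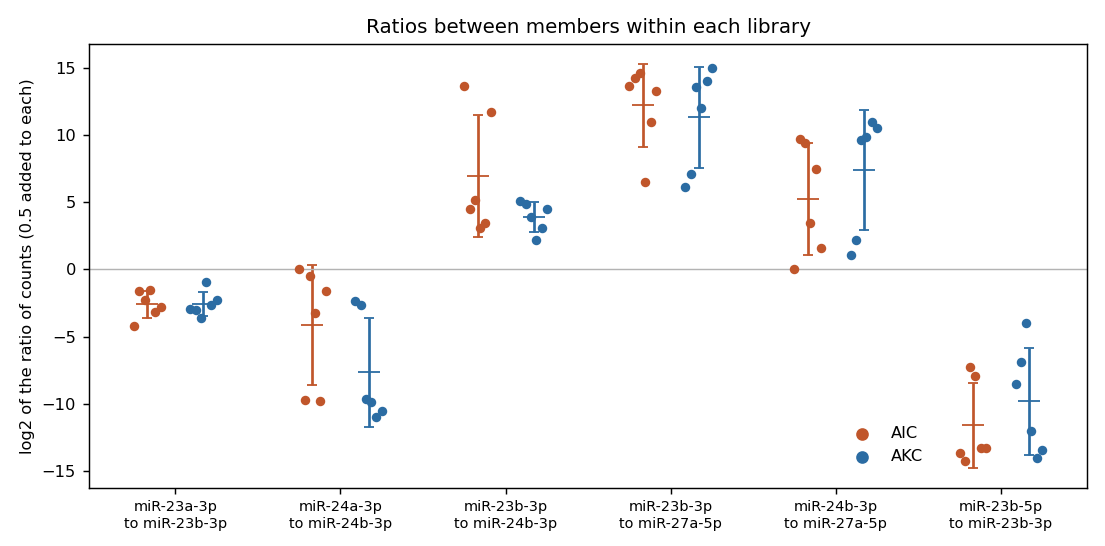
Log2 ratio of the counts of a pair of members in each library, with 0.5 added to each count, AIC to the left of AKC in each pair and bars for the mean and SD. The miR-23a-3p to miR-23b-3p ratio stays from -4.22 to -1.52 in AIC and from -3.62 to -0.97 in AKC, and the ratios with miR-24a-3p, miR-24b-3p, miR-23b-5p and miR-27a-5p spread over a far wider range.

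The 4 members other than the miR-23-3p pair were either nearly absent or clearly present in a library. Of their 48 values, 23 were 0, 3 were 1 or 2 counts, none lay above 2 and below 64, and 22 were 64 or more, a limit set after the values had been seen. Among the 64 other rows with sums in the same range, 4.82% of values lay above 2 and below 64 counts, 52.1% were 0 and 35.7% were 64 or more, so the pattern is shared by rows of that abundance. AIC replicate 4 and AKC replicates 1 and 2 held all 6 members at 3 counts or more, AIC replicate 3 held 5 and AKC replicate 3 held 4. AIC replicates 1 and 6 held only the miR-23-3p pair. Depth moved with this in part, as AKC replicates 1 and 2 had the largest totals and AIC replicate 6 the smallest, but AKC replicate 6, with 12685884 counts, held 3 members. After thinning of every library to 2253241 counts each library held as many members at 3 counts or more as before. Since the values present were 64 counts or more, thinning could scarcely have changed this, and it is no test of depth.

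The low members often sat in the same libraries, which was not compared with other rows of that abundance. ssa-miR-24a-3p and ssa-miR-23b-5p were both present in 4 libraries and both missing in 7. ssa-miR-27a-5p was present in 3 libraries, each of which also held ssa-miR-24a-3p, ssa-miR-23b-5p and ssa-miR-24b-3p. These 3 libraries had the largest totals of their groups, and ssa-miR-24b-3p was itself present in 10 libraries.

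By share of library counts, the 3 miR-23 members took 0.212% ± 0.0271 in AIC and 0.149% ± 0.0861 in AKC (SD, n = 6 each). The 2 miR-24 members took 0.0083% ± 0.0076 in AIC and 0.0077% ± 0.0029 in AKC, and ssa-miR-27a-5p at most 0.00142% in AIC and 0.00352% in AKC. Of the counts of all 6 members, the miR-23-3p pair held between 90.4% and 100% in AIC libraries and between 87.1% and 96.4% in AKC libraries.

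Among 72 tested miRNAs outside the 3 families, those whose log2 CPM followed ssa-miR-23b-3p most closely over the 12 libraries were ssa-miR-10b-5p, ssa-miR-100a-5p and ssa-miR-10d-5p, with Pearson r of 0.92, 0.90 and 0.89. All 3 were themselves called higher in AIC, and with the group means removed their r was 0.78, 0.73 and 0.69. The paralogue ssa-miR-23a-3p had r of 0.68 with ssa-miR-23b-3p, and 16 of the 72 lay higher. With the group means removed the r of this pair was 0.28, within AIC -0.63 and within AKC 0.55. Each r within a group rests on 6 libraries. AIC replicate 1 had both the highest ssa-miR-23b-3p and the lowest ssa-miR-23a-3p of the AIC libraries, so the negative r leans on that library. ssa-miR-24b-3p was followed most closely by ssa-miR-181b-5p, ssa-miR-7132b-5p and ssa-miR-7132a-5p, with r of 0.94, 0.82 and 0.78, none of which was called. For ssa-miR-27a-5p the closest were ssa-let-7i-5p, ssa-miR-146a-5p and ssa-miR-99-5p, at 0.72, 0.67 and 0.62, where r rests on 3 libraries above 2 counts. These values describe the libraries, which share depth and scaling, and carry no test.

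Rows with a locus number were no members. Of these 6, ssa-miR-23a-3-5p had at most 122 counts in AIC and up to 1179 in AKC, and was tested and not called (log2 fold change -1.97, standard error 1.94, adjusted p = 0.506, edgeR). ssa-miR-24a-4-5p had up to 1410 counts in AIC and up to 402 in AKC.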

How the data were processed

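The authors trimmed adapters with Cutadapt, filtered reads on quality, mapped clean reads to the ICSASG_v2 assembly with miRDeep2 and counted them against salmon miRNAs of miRBase. The submitters' processing notes name cutadapt 1.12, FastQC 0.11.5, bcl2fastq 2.20.0.422 and DESeq2 1.20.0. Libraries were made from 50 ng of RNA with 25 PCR cycles. The deposited values are estimated counts per mature miRNA and library, without scaling. In 12 of 361 rows some were fractional, and all were rounded before testing.

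From these counts edgeR 4.0.16 in R 4.3.3 (filterByExpr with a minimum count of 10, TMM, quasi-likelihood test, Benjamini-Hochberg over 76 miRNAs) compared AIC with AKC. The test gives no standard errors, so these were derived from its log2 fold changes and F statistics. The 95% intervals used these derived standard errors and a t quantile. Ratios of members were compared with exact permutation tests, and their 95% intervals come from inverting that test. log2 CPM used a prior count of 2. Python 3.11.15, NumPy 2.4.6, pandas 2.3.3, SciPy 1.17.1, Matplotlib 3.10.9, limma 3.58.1 and DESeq2 1.42.0 were also used, and the code was tested on simulated data. Alternatives were other scalings, filters, DESeq2, a replicate block, other pseudocounts, thinning, and leaving out each library. Mapped reads were taken from the study by group and replicate number. Members and lists were chosen with earlier results of these data known. Named are all members, the nearest rows below the sum, the 3 miRNAs closest to the leading member of each family, and all marker lists.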

Additional observations from a re-analysis of the deposited data

Results flagged for a closer look

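The 6 members and their 6 ratios in AIC and in AKC gave 24 groups of 6 libraries. In each, the library farthest from the others was set against the range of its group. Chance marks about 1 in 20 such groups, a rate that need not hold where most values are 0. With 2 of the 24 groups marked, chance is not excluded. AIC replicate 1 stood apart for ssa-miR-23b-3p, with 3429 TMM-normalized CPM beside 2356 in the next AIC library. It did not stand apart by share of the library's total count, with 0.181% beside 0.223% in AIC replicate 6. AIC replicate 4 stood apart for ssa-miR-27a-5p, with 23.3 CPM beside 0.949 in the next AIC library.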

How the results depend on the processing

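The number of members called higher in AIC was 1 in the analysis reported first. It was 0 with total counts, with mapped reads as library size and without AIC replicate 6, where ssa-miR-23b-3p was at 0.48, 0.04 and 1.17. It was 2 with library sizes that leave out the 5 most abundant miRNAs, with DESeq2 on the same miRNAs or without a filter, after thinning and without AIC replicate 1, each time with ssa-miR-23a-3p added. Leaving out each library gave 0 to 2 such calls. None was called lower under any of these settings. ssa-miR-24b-3p changed sign with mapped reads (-0.32) and with the replicate block (-0.24). With the replicate block ssa-miR-23b-3p was at 1.60 and stayed called, and all 6 ratios stayed uncalled. Same-numbered libraries did not deviate together (correlations -0.12 to 0.07), which cannot show whether they share a fish. The main tests took no pairs because the methods of the study name no block and the labels no pairs. Uncalled ratios changed sign as well. The ssa-miR-23a-3p to ssa-miR-23b-3p difference ran from -0.22 to 0.32 and the ssa-miR-23b-3p to ssa-miR-27a-5p difference from -0.13 to 2.04 when each library was left out, and ssa-miR-24b-3p to ssa-miR-27a-5p was 0.14 with only libraries of at least 10 counts in the pair. Causes were not tested, and the shift of the median that each scaling makes is no test of a cause. At 0 counts a library sets only an upper limit on reads, as for ssa-miR-24a-3p, ssa-miR-23b-5p and ssa-miR-27a-5p in several libraries. The number of members held in each library was the same after thinning, which the size of the counts present made nearly certain.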
